A study of Mus musculus with 31 samples.

Results

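Translation initiation and elongation factors were followed in newly made and older RNA of mouse embryonic stem cells with and without Dicer1, which encodes the nuclease that releases mature microRNAs from their hairpin precursors. The set was chosen by name: protein-coding genes of GENCODE M21 whose symbol starts with Eif1 to Eif6, Eef1 or Eef2, without the eIF2 kinases. Of 64 such genes, 62 reached a mean of 1 TPM (a length-corrected share of a library) over the 16 libraries, among 11279 protein-coding genes and 21821 gene entries that did. Just inside that limit were Eef1a2 at 1.61 TPM and Eif5a2 at 2.01 TPM, and just outside it Eif4e3 at 0.312 TPM and Eif4e1b at 0.148 TPM.

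The cells were DTCM23/49 XY mouse embryonic stem cells, a conditional Dicer line grown with LIF and serum on gelatin. The 4 groups were labelled and preexisting RNA of WT cells and of microRNA-depleted cells, 2 cultures per genotype, each labelled with 200 uM 4-thiouridine (4sU) for 10 minutes and for 15 minutes. RNA that took up 4sU is called labelled, and the unlabelled rest preexisting, as one label has it (the sample titles call the same fraction "tot"). Loss of Dicer1 was induced with 800 nM 4-hydroxytamoxifen, and the labels give 8 days of treatment for both genotypes and name a conditional Dicer mutant as the source of both. They do not make clear whether WT cells received the drug; if they did not, drug and genotype cannot be told apart in any comparison of depleted with WT cells. Below, a culture's level is the mean TPM of its 10 and 15 minute libraries and ± is the SD of n = 2 cultures. Log2 changes are of TPM + 1, average the logs of those libraries and carry their SE from limma. The p-values use 1 spread per gene, pooled over the 2 cultures of each of the 4 groups and moderated by limma across genes. The main fit treats the labelled and preexisting RNA of a culture as separate.

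In eukaryotes, eIF4F, made of the cap-binding protein eIF4E, the scaffold eIF4G and the helicase eIF4A, recruits the small ribosomal subunit to a capped mRNA. The subunit comes loaded with eIF3, eIF1, eIF1A and with eIF2, which carries the initiator tRNA as its GTP form and is recharged by eIF2B. Subunit joining needs eIF5 and eIF5B, after which eEF1A brings each aminoacyl-tRNA, its exchange factor eEF1B reloads it with GTP, and eEF2 moves the ribosome along the mRNA. Several of these mRNAs are of the TOP class, which start with a run of pyrimidines and whose translation follows mTOR signalling, and eIF4A2, eIF4E2 and the eIF4E-binding protein 4E-T (Eif4enif1) have been linked to repression by microRNAs.

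There are 2 kinds of short sequence in the factors' own genes that bear on these samples and are shown for that reason: sites for the embryonic stem cell microRNAs that depletion removes, and pyrimidine runs at the transcription start. The microRNAs below are of the miR-290 and miR-302 clusters, which share the seed (bases 2 to 8, in capitals), and of the miR-17 cluster, whose miR-17 seed is shifted by 1 base.

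mmu-miR-294-3p: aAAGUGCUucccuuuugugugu
mmu-miR-302b-3p: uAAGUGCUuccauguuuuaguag
mmu-miR-17-5p: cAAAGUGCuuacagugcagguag
mmu-miR-92a-3p: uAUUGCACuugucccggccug

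A 3′ UTR site was counted where the annotated coding transcript with the most signal held a match to bases 2 to 8 of the microRNA, or to bases 2 to 7 followed by A, on the sense strand. For miR-290 and miR-302 these are AGCACTT and GCACTTA, which overlap by 6 bases and are 1 site where they merge. Of the 62 factors, 9 (14.5%) held such a site, against 16.2% of 11054 coding genes with a 3′ UTR; the median 3′ UTR was 460 bases in the factors and 778 in all. The merged 8-base match occurred in 2 factors, shown here with the match in capitals.

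Eif2s2: acagacttcttAGCACTTAggaagcttctc
Eif4b: ctggatgaggaAGCACTTAacaggtagtga

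The first lies at chr2:154871981-154872010 on the minus strand of GRCm38 and the second at chr15:102096080-102096109 on the plus strand, both in the 3′ UTR of their genes. A miR-17 match (GCACTTT or CACTTTA) was present in 9 factors (14.5%) against 17.6% of coding genes, and a miR-92a match (GTGCAAT or TGCAATA) in 4 (6.45%) against 10.3%. A letter match describes the sequence and is no evidence of binding.

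RefSeq promoter windows of GRCm38.p6 were matched for 48 of the 62 factors. An unbroken run of at least 8 C or T letters on the sense strand covering the annotated start was found in 5 of them (10.4%), against 4.86% of 8819 coding genes. Where a gene had several annotated starts, the one with the longest run was kept. Each window shows 12 bases before the start and 18 from it, with the run in capitals.

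Eef1a1: ggctccgCCCTCTTCCCgagggtgggggag
Eif2b5: TCCTCTTTCTCTCCCTgcaactacaccttc
Eif2s3x: ccgagcaTTTTCCTTTTCTCTCCgagcaag
Eif3f: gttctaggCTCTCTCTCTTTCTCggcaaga
Eif3l: cggagTTCTTCTTCCgctctctcccacggg

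The windows are chr9:78481707-78481736 (minus strand), chr16:20498805-20498834 (plus), chrX:94212634-94212663 (minus), chr7:108934403-108934432 (plus) and chr15:79075211-79075240 (plus), and the Eif2b5 run of 21 bases continues upstream of its window. An annotated start can lie bases away from the one a cell uses, so a factor with or without a run is described only by these letters. A run printed here need not be the start of a TOP mRNA.

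Dicer1, the targeted gene (chr12:104687742-104751952), followed the labels in every culture. Its preexisting level was 15.5 and 17.6 TPM in WT and 2.22 and 3.16 TPM in depleted cultures (log2 change -2.29 ± 0.25, limma adjusted p = 0.0347), and its labelled level 7.59 and 8.86 against 3.31 and 2.44 TPM. Among markers fixed for other cells, all 8 embryonic stem cell markers were above 1 TPM. Their summed preexisting level was 1509 and 1631 TPM in WT and 1394 and 1487 TPM in depleted cultures. By log2 change, 4 of these 8 were above 0 and 4 below in preexisting RNA, with a median of 0.03. The summed 6 fibroblast markers were 71.6 and 84.9 against 109.6 and 166 TPM in preexisting RNA. The 5 neural or mesoderm markers summed to 9.07 and 12.9 against 18.6 and 26.9 TPM. In labelled RNA that neural or mesoderm sum was 13.8 and 13.6 against 12.9 and 25.4 TPM, which overlap. Only 2 of those 5 reached a mean of 1 TPM. The summed 5 primitive endoderm markers were 6.45 and 5.46 TPM in WT and 13.3 and 4.78 TPM in depleted cultures in preexisting RNA, which overlap. Most of the fibroblast sum was Vim, and Col1a1, Col1a2 and Twist1 were each under 1 TPM. Intronic entries took 15.5 to 18.4% of labelled WT libraries, 18.5 to 23.3% of labelled depleted libraries and 4.41 to 6.68% of preexisting libraries, and a TPM is a share of all of a library's entries. The part of the marker and intronic differences in the results below was not tested, except where a rescaled value is given. In bulk RNA, fewer cells of a type and less RNA per cell cannot be told apart.

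The factors were abundant: their median was 52.6 TPM against 10.2 TPM over all coding genes tested, and together they made up 14705 to 15089 TPM of labelled and 21592 to 22471 TPM of preexisting WT RNA. At the top stood Eef1a1, which encodes the main eEF1A, at 4781 TPM, followed by Eif5a (2705), Eif4a2 (1635), Eif4a1 (1458), Eif4g2 (1355) and Eef1b2 (914). The least abundant were Eef1a2 (1.61), the eEF1A form of muscle and nerve cells, Eif5a2 (2.01), Eif1b (2.03), and the lysine methyltransferases Eef1akmt4 (2.16) and Eef1akmt3 (2.48).

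These gene levels depend on how many transcripts are annotated. The deposited table holds 329 exonic entries for the 62 factors, 20 factors having 1 entry and Eif4a2 the most with 24. The entries of a gene were close to each other in some factors (13.0 to 15.0 TPM over the 3 of Eif3f) and far apart in others (10.5 to 337 TPM over the 14 of Eif4g2). Over the 62 factors, Spearman's rho between mean TPM and number of entries was 0.54, and between mean TPM per entry and number of entries 0.04. Per entry, Eef1a1 remained first at 598 TPM, while Eif4a2, with 1635 TPM in all, had 68.1 TPM per entry and stood below Eef2, the translocase, with 123 TPM in its single entry. In 16 factors less than 50% of the summed signal came from isoforms annotated as coding, among them Eif4a1 (14.8%), Eif5b (17.8%) and Eif6 (21.7%). Levels are therefore compared mostly within a gene. Near-identical copies add to this: Eif1a and Eif1ax, Eif3j1 and Eif3j2, Eif2s3x and Eif2s3y, and pseudogene entries such as Eif4a-ps4 (119 TPM) and Eif3s6-ps1 (89.3 TPM) may share reads with a factor, and those values are uncertain. Whether strand was used in counting is not given in the sources used here, so a factor and a gene antisense to it may share signal too.

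The first comparison asks whether newly made RNA of the factors differed in depleted cells. Most factors were lower, by small amounts: 51 of 62 had a log2 change below 0, against 44.5% of all entries, and the median was -0.22 against 0.06 for all entries and 0.01 for all coding genes. No factor passed the threshold (limma, adjusted p under 0.05; 0.128% of all entries were called). At an unadjusted p under 0.05 there were 8 lower and 1 higher factors, where 5.09% of all entries were lower and 8.49% higher. The culture values did not overlap with depleted cells lower in 35 factors (56.5%, against 20.2% of all entries) and with depleted cells higher in 5 (8.06%, against 30.3%). The summed level of all 62 was 15089 and 14705 TPM in WT and 13235 and 14522 TPM in depleted cultures. With TPM recomputed over coding entries, which removes intronic and pseudogene signal from the total, 45 factors were below 0, with a median of -0.17 against 0.06 for all entries. With each library centred on its median, 56 were below 0. The median was -0.31 with only the 10 minute and -0.13 with only the 15 minute libraries. The 9 factors with an unadjusted p under 0.05 (limma) became 3 with only the 15 minute libraries. Entries at that p went from 2963 to 1966 of 21821. With 1 culture left out the median ran from -0.25 to -0.21, and fewer factors and fewer entries were under that p.

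**Figure D1:**
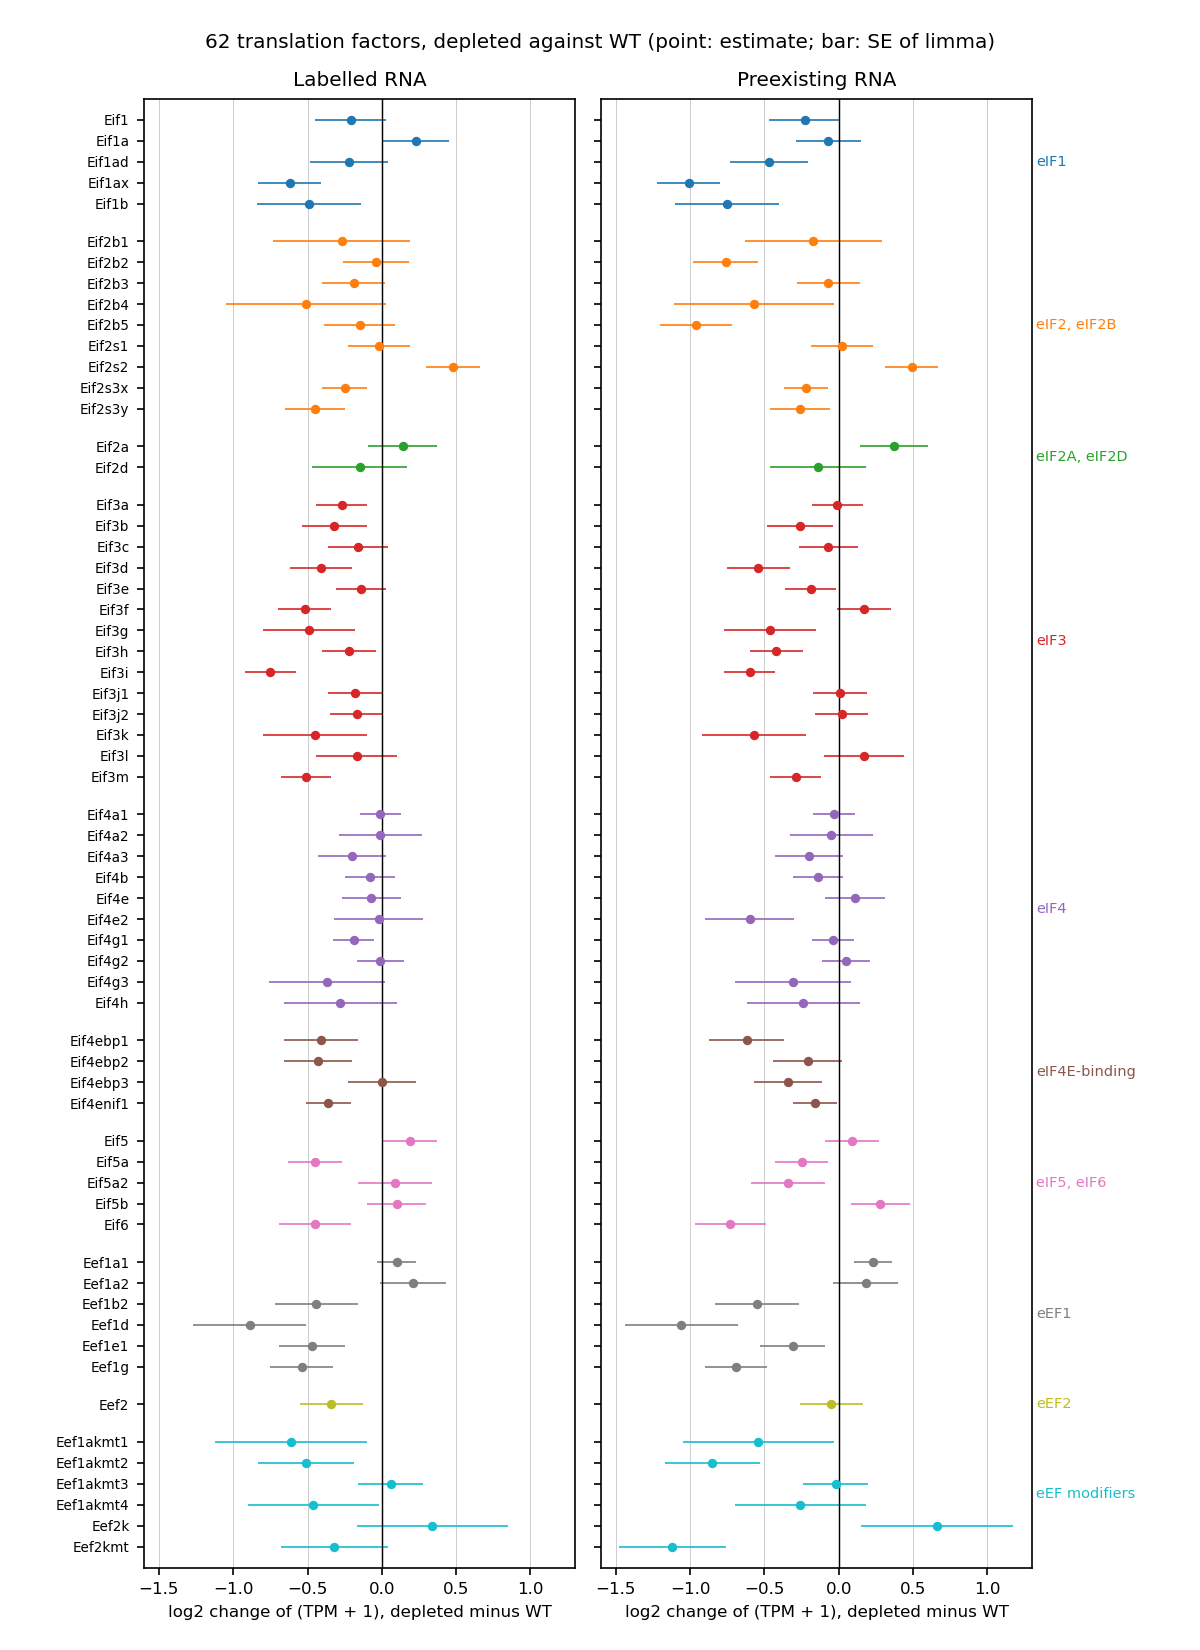
Log2 change of TPM + 1, depleted minus WT, on the horizontal axes for each of the 62 factors in labelled (left) and preexisting RNA (right); points are estimates from 2 cultures a group, bars are SE, colours are roles. All 14 eIF3 genes lie left of 0 in labelled RNA, and 10 of 14 do in preexisting RNA.

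For the eIF3 complex, the scaffold on the small subunit, all 14 genes were below 0 in labelled RNA under each scaling. They include the near-identical copies Eif3j1 and Eif3j2, which may share reads. The median was -0.30, with a range from -0.75 to -0.14. Eif3i, a core subunit, had the smallest p of all factors. It measured 103 and 96.8 TPM in WT and 58.9 and 61.7 TPM in depleted cultures (log2 change -0.75 ± 0.17, limma adjusted p = 0.196). Both depleted cultures were well below both WT cultures, and the same was true of Eif3m (189.6 and 190.5 against 137 and 131 TPM) and Eif3f (29.9 and 30.3 against 21.3 and 20.8 TPM). At the other end, Eif3e (-0.14 ± 0.17) and Eif3c (-0.16 ± 0.20) differed by no more than their SE.

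Among the factors that load the start codon, Eif1ax, the X-linked gene for eIF1A, was 10.5 and 11.7 TPM in WT and 6.32 and 7.58 TPM in depleted cultures (-0.62 ± 0.21, limma adjusted p = 0.285). Of the 9 genes of eIF2 and eIF2B, 8 were below 0 and Eif2s2, which encodes eIF2 beta and carries the 8-base site printed above, was above. Its labelled level was 479.7 and 407 TPM in WT and 603 and 637 TPM in depleted cultures (0.48 ± 0.18, limma adjusted p = 0.316), with both depleted cultures higher. The other two eIF2 subunits lay elsewhere: Eif2s1 (eIF2 alpha, the target of the eIF2 kinases) at -0.02 ± 0.21 and Eif2s3x (eIF2 gamma) at -0.25 ± 0.15.

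The eIF4 group was close to 0, with a median of -0.07 and 10 of 10 members below 0 (6 of 10 with TPM over coding entries): Eif4a1, Eif4a2 and Eif4g2 were each at -0.01. The regulators that bind eIF4E had a median of -0.39, with Eif4enif1 at 238 and 237 TPM in WT and 184 and 185 TPM in depleted cultures (-0.36 ± 0.15, limma adjusted p = 0.356). Eif5a, whose product helps ribosomes through difficult peptide bonds, was 2319 and 2304 TPM in WT and 1730 and 1691 TPM in depleted cultures (-0.45 ± 0.18, limma adjusted p = 0.325), while Eif5 (0.19) and Eif5b (0.10) were above 0. In the eEF1 group the direction differed by subunit: Eef1a1 was at 0.10 ± 0.13 (-0.01 with libraries centred), and the eEF1B subunits were at -0.44 (Eef1b2), -0.89 (Eef1d) and -0.54 (Eef1g). Eef1g, the gamma subunit, was 368 and 359.7 TPM in WT and 239.8 and 270.0 TPM in depleted cultures, without overlap. Eef1d, the delta subunit, showed 289.9 and 191 against 141 and 128 TPM, with a wide gap between the WT cultures.

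In preexisting RNA, the older pool, 48 of 62 factors were below 0 in depleted cells, against 45.9% of all entries, and the median was -0.22 against 0.03. Again no factor passed (limma, adjusted p under 0.05; 0.646% of all entries were called), and at an unadjusted p under 0.05 there were 12 lower and 1 higher factors, where 8.35% of entries were lower and 9.46% higher. Cultures did not overlap with depleted cells lower in 20 factors (32.3%, against 19.3% of entries) and higher in 5 (8.06%, against 25.1%). In both fractions 44 factors were below 0 and 7 above. The summed level was 21592 and 22471 TPM in WT and 21923 and 21112 TPM in depleted cultures, which overlap. With only the 10 minute libraries 41 factors were below 0, with a median of -0.11. The 13 factors with an unadjusted p under 0.05 (limma) became 8 with these and 4 with only the 15 minute libraries. Entries at that p went from 3886 to 3063 and 2023 of 21821. The median was -0.38 without depleted culture 1, -0.13 without depleted culture 2 and -0.16 without WT culture 1. Without WT culture 1 or depleted culture 2 fewer factors were under that p, and without WT culture 2 or depleted culture 1 more were.

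Eif1ax had the smallest p. Its preexisting level was 18.2 and 21.4 TPM in WT (19.8 ± 2.26) and 8.57 and 10.5 TPM in depleted cultures (9.53 ± 1.36), a log2 change of -1.01 ± 0.21 (limma adjusted p = 0.0841). Both depleted cultures lay below both WT cultures. With coding isoforms only, an alternative chosen after seeing the data, Eif1ax was the 1 factor that passed (-0.95, limma adjusted p = 0.0476). In labelled RNA the intronic signal of Eif1ax, 7.02 and 6.86 TPM in WT and 8.13 and 6.79 TPM in depleted cultures, overlapped. Its chromosome 18 paralog Eif1a, by contrast, measured 134 and 121 TPM in WT and 104 and 142 TPM in depleted cultures, which overlap. The whole eIF1 group was below 0, with a median of -0.47.

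The exchange factor eIF2B was uneven. Eif2b5, its catalytic epsilon subunit, was 41.2 and 29.7 TPM in WT and 18.0 and 20.2 TPM in depleted cultures (-0.96 ± 0.24, limma adjusted p = 0.116), without overlap, although its labelled cultures overlapped (22.6 and 19.7 against 17.9 and 20.2 TPM). Eif2b2 was 29.1 and 24.0 against 21.1 and 17.0 TPM (-0.76 ± 0.22), but its single depleted libraries ran from 5.61 to 36.5 TPM, around the WT libraries of 20.1 to 33.6 TPM. Those of Eif2b5 also overlapped, at 8.12 to 27.9 against 24.2 to 45.0 TPM, whereas Eif2b3 was at -0.07 ± 0.21. Eif2b1 shows how far 2 cultures can part: its depleted values were 57.7 and 15.1 TPM around WT values of 33.2 and 30.1 TPM. Eif2s2 was again higher, at 583 and 514 TPM in WT and 659 and 903 TPM in depleted cultures (0.49 ± 0.18, limma adjusted p = 0.222).

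Of the eIF3 genes 10 were below 0 in preexisting RNA, led by Eif3i at 143 and 119 against 90.9 and 84.4 TPM (-0.60 ± 0.17, limma adjusted p = 0.151). Eif3f was 1 of the 4 above 0, at 58.3 and 49.7 TPM in WT and 61.8 and 59.8 TPM in depleted cultures (0.17 ± 0.18, a change no larger than its SE). In the eEF1 group Eef1g was 773 and 688 TPM in WT and 563 and 358 TPM in depleted cultures (-0.69 ± 0.21, limma adjusted p = 0.157), and Eef1a1 lay on the other side, at 5140 and 6391 against 6464 and 6983 TPM (0.23 ± 0.13). Eif6, which keeps the large subunit from joining too early, was 108 and 86.6 against 61.2 and 62.3 TPM (-0.73 ± 0.24).

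Among the enzymes that modify elongation factors, Eef2kmt, the eEF2 lysine methyltransferase, was 16.2 and 10.8 TPM in WT and 7.26 and 4.92 TPM in depleted cultures (-1.12 ± 0.36, limma adjusted p = 0.181), the lowest change of all 62. Eef2k, the kinase that inactivates eEF2, had the highest, with 2.61 and 5.05 against 9.44 and 6.11 TPM (0.66 ± 0.51), and its depleted libraries, from 1.04 to 12.8 TPM, spanned those of WT. Eef2 itself differed little, at 165 and 205 TPM in WT and 205 and 152 TPM in depleted cultures (-0.05 ± 0.21). The factors linked to microRNA repression were near 0 as well: Eif4a2 at -0.05 ± 0.28, Eif4a1 at -0.03 ± 0.14, Eif4g2 at 0.05 ± 0.16 and Eif4enif1 at -0.16 ± 0.15, with Eif4e2 (the cap-binding repressor 4EHP) at -0.60 ± 0.30.

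**Figure D2:**
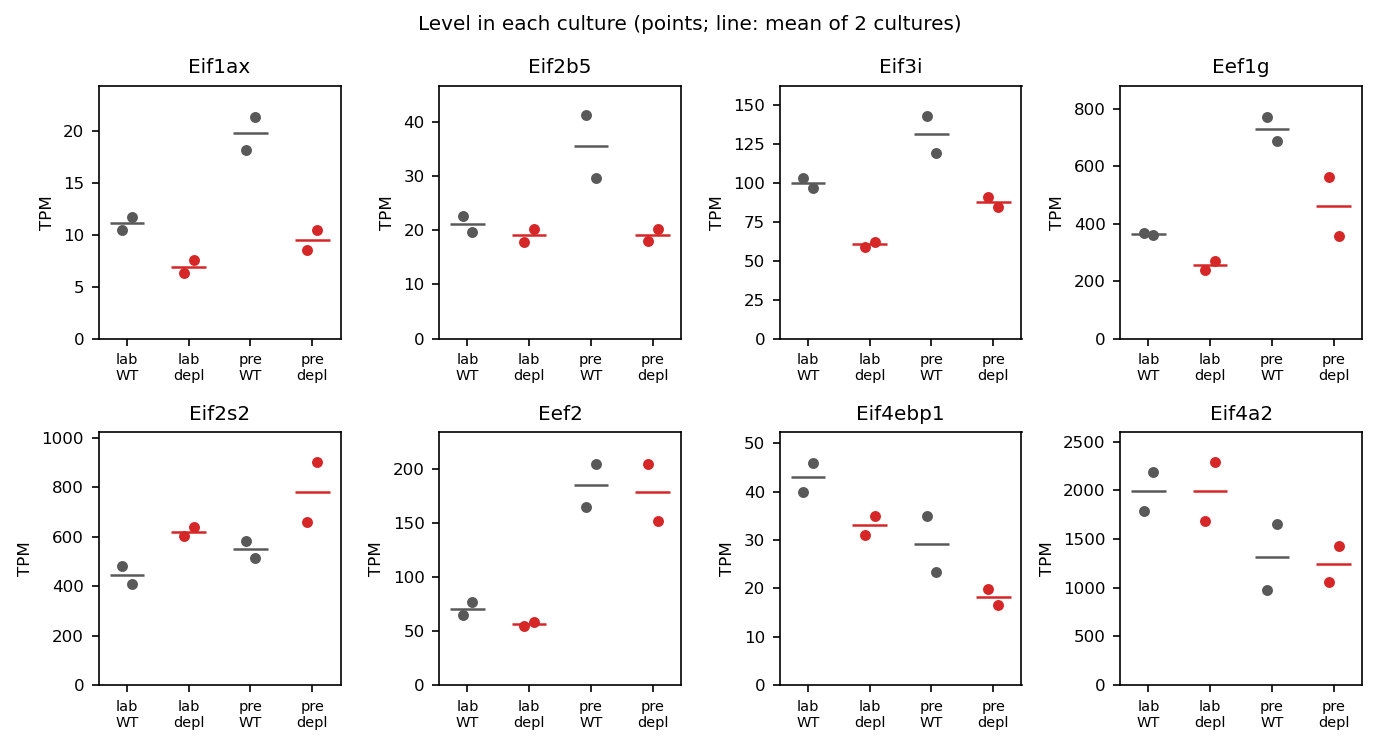
TPM (vertical axes, from 0) of 8 factors in labelled (lab) and preexisting (pre) RNA of WT (grey) and depleted (depl, red) cultures; each point is 1 culture, lines are means of 2. Eif1ax, Eif3i and Eef1g are lower and Eif2s2 higher in both depleted cultures in both fractions, Eif2b5 does not overlap between genotypes in preexisting RNA and overlaps in labelled RNA, and Eef2 and Eif4a2 overlap in preexisting RNA.

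Of the 9 factors with a miR-290 or miR-302 match, 4 were above 0 in preexisting RNA, with a median of -0.14 against -0.25 in the others, while over all coding genes the medians were 0.20 with and 0.01 without a match. Of the 2 factors with an 8-base site, Eif2s2 was at 0.49 and Eif4b at -0.14 ± 0.17. The 9 factors with a miR-17 match had a median of -0.02 against -0.23 in the others, where all coding genes gave 0.23 and 0.00. The 4 with a miR-92a match had a median of 0.04 against -0.25, where all coding genes gave 0.16 and 0.03. For each of the 3 seeds the median with a match was thus the higher, in the factors and in all coding genes; the difference was not tested.

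The preexisting to labelled ratio relates the older pool to the new RNA of the same culture, so a transcript that decays more slowly has a higher ratio. Between genotypes the factors' ratios were balanced: 33 were above 0 (47.8% of all entries were) and 29 below, with a median of 0.02 against -0.02 for all entries (22 above 0 with TPM over coding entries, where both medians were -0.06), and none passed (limma; 0.00458% of all entries were called, and 2 factors had an unadjusted p under 0.05, where 3.02% of entries did). The factors' median turned to -0.10 without depleted culture 1 and to -0.12 with only the 15 minute libraries. The 2 factors had opposite signs. The ratio of Eif3f was 1.95 and 1.64 in WT and 2.90 and 2.88 in depleted cultures (0.68 ± 0.26), and that of Eif2b5 was 1.82 and 1.51 against 1.01 and 0.998 (-0.81 ± 0.34), each without overlap and each with a limma adjusted p of 1. For the factors with a miR-290 or miR-302 match the median ratio change was 0.01, against 0.02 in the others.

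Within a genotype the 2 fractions differed far more. In WT cells 49 of 62 factors were above 0 in preexisting relative to labelled RNA. Of all entries 38.5% were, and of coding genes 5811 of 11279. The factors' median was 0.36, against -0.24 for all entries and 0.02 for all coding genes. The test called 21 factors, all higher in preexisting RNA (limma, adjusted p under 0.05; 7.98% of all entries were called higher, 26.1% lower and 34.1% either way). Of the 11279 coding genes, 1102 were called higher and 849 lower. In depleted cells 22 were called higher and 1 lower, where 11% and 30.1% of entries and 1608 and 1255 of 11279 coding genes were. Above 0 were 45 factors, against 38.4% of entries and 5945 coding genes. The factors' median was 0.38, against -0.28 for all entries and 0.04 for coding genes. Of the called factors 19 were shared, 2 were called in WT alone (Eif1ax and Eif3d) and 4 in depleted cells alone (Eif3i, Eif3j2, Eif3l and Eif4ebp1), and none of these passed in the ratio comparison above. The counts rest on scale and on every culture. With TPM over coding entries the calls were 7 higher and 1 lower in WT (median of the factors 0.07, of all entries -0.26). Of all 12522 entries under that scaling, 229 were called higher and 1104 lower. In depleted cells the calls were 7 higher and 5 lower, against 445 and 2177 of those entries. Centred on the library median, 37 factors were called higher and 0 lower in WT, against 5147 and 3397 of 21821 entries. The depleted calls were then 32 and 0, against 6011 and 4056 entries. The median of all entries moved from -0.24 to 0.25 in WT. Without WT culture 1 or WT culture 2 no factor and no other entry was called in WT, though 19 and 15 factors had an unadjusted p under 0.05, and without depleted culture 1 or 2 the depleted count was 5 or 11. With only the 10 minute libraries 8 factors were called in WT, all higher, where 529 of 21821 entries were called higher and 3435 lower.

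**Figure D3:**
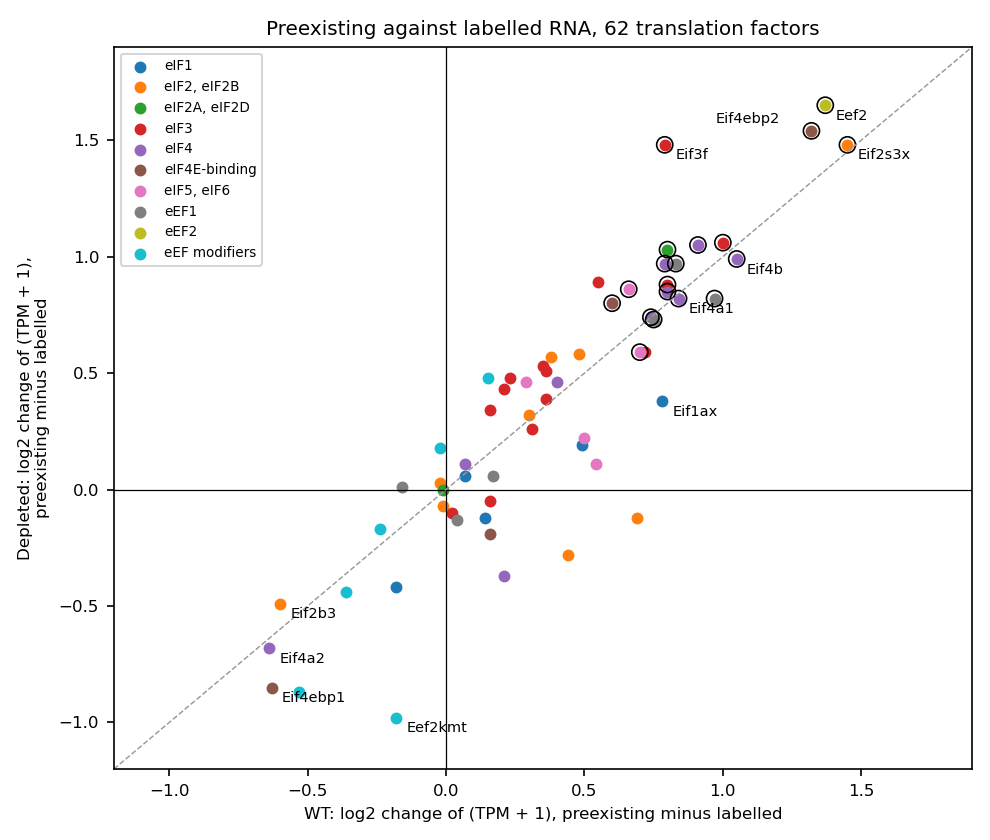
Log2 change of TPM + 1, preexisting minus labelled, in WT (horizontal) and depleted cells (vertical) for the 62 factors, coloured by role; rings mark the 19 called in both genotypes and the dashed line is equality. Eif2s3x, Eef2 and Eif4ebp2 lie farthest up and right, and Eif4a2 and Eif4ebp1 are on the labelled side in both.

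Eif2s3x had the highest value in WT: 56.8 and 54.9 TPM in labelled and 157 and 150.1 TPM in preexisting RNA, a ratio of 2.77 and 2.74 (1.45 ± 0.15, limma adjusted p = 0.000779). Depleted cultures gave ratios of 2.65 and 2.95, so the cultures of both genotypes were close together. Its Y-linked paralog Eif2s3y had ratios of 1.34 and 1.27 in WT (0.38 ± 0.20). Eef2 came next, with 64.9 and 76.4 TPM in labelled and 165 and 205 TPM in preexisting WT RNA (1.37 ± 0.21, limma adjusted p = 0.00256), and ratios of 3.76 and 2.61 in depleted cultures. Eif4ebp2, an mTOR-controlled repressor of eIF4E, was 32.6 and 36.9 TPM in labelled and 84.0 and 94.6 TPM in preexisting WT RNA (1.32 ± 0.23, limma adjusted p = 0.00435). These 3, with Eif4b, Eif4g1, Eif4a1 and Eef1a1, were also the 7 called higher in WT with TPM over coding entries.

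The eIF4 group, which is wider than eIF4F, was mostly on the preexisting side in WT, with 9 of 10 above 0 (7 of 10 with TPM over coding entries). Called in WT and again in depleted cells were Eif4b (1.05), Eif4g1 (0.91), Eif4a1 (0.84), Eif4g2 (0.80), Eif4e (0.79) and Eif4a3 (0.74), the helicase of the exon junction complex. Eif4a2, the close paralog of Eif4a1, lay on the other side. It measured 1792 and 2187 TPM in labelled and 977 and 1658 TPM in preexisting WT RNA (-0.64 ± 0.28, limma adjusted p = 0.119), the lowest of all 62, and ratios stayed below 1 in all 4 cultures, from 0.545 to 0.758. The inhibitors of eIF4E also split, with Eif4ebp1 at 39.9 and 46.0 TPM labelled and 34.9 and 23.4 TPM preexisting in WT (-0.63 ± 0.25, limma adjusted p = 0.09) and the 1 factor called lower in depleted cells (-0.85 ± 0.25, limma adjusted p = 0.0296).

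All 14 eIF3 genes were above 0 in WT (9 with TPM over coding entries). Of these, Eif3b (1.00), Eif3c (0.80), Eif3f (0.79) and Eif3d (0.72) were called, while Eif3k (0.02) and Eif3h (0.16) were not. In depleted cells Eif3f reached 1.48 ± 0.18, from 21.3 and 20.8 TPM labelled to 61.8 and 59.8 TPM preexisting. Of the eEF1 group Eef1g (0.97), Eef1a1 (0.83) and Eef1a2 (0.75) were called, and Eef1b2 (0.17), Eef1d (0.04) and Eef1e1 (-0.16), a partner of the tRNA synthetase complex, were not. Of the 6 modifying enzymes 1 was above 0 in WT (5 with libraries centred), where 38.5% of all entries and 5811 of 11279 coding genes were. None was called, and Eef2kmt and Eef1akmt2 were at -0.98 and -0.87 in depleted cells. For the remaining roles, Eif2a (0.80), Eif5 (0.70), Eif5a (0.66) and Eif4enif1 (0.60) were called in both genotypes, and Eif2b3, at ratios of 0.672 and 0.663 in WT, had a limma adjusted p of 0.0553.

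Factors of the TOP class were on the preexisting side in WT. Of these, 9 of 9 were above 0 (6 with TPM over coding entries, with a median of 0.51), against 38.5% of all entries and 5811 of 11279 coding genes. The test called 5 higher (Eef2, Eif4b, Eef1g, Eef1a1 and Eif3f), where 7.98% of all entries and 1102 coding genes were. The median of the 9 was 0.79. The eIF4 group, which also holds Eif4b, was similar, with 6 of 10 called higher and a median of 0.77. In depleted cells 7 of 9 TOP factors were above 0, with a median of 0.82. Of all entries 38.4% were, and of coding genes 5945 of 11279. The TOP list was taken from textbook knowledge, and only Eef1a1 and Eif3f of it had a start run by the letter rule above. That rule kept the annotated start with the longest run, which need not be the start used in these cells. The 5 factors with a start run had a WT median of 0.79 against 0.36 in the matched factors without one, where all coding genes gave 0.05 and 0.01. Another shared feature was a small nucleolar RNA gene inside the factor's gene on the same strand, in 8 of 62 factors (12.9%) against 2.05% of coding genes: Eef1b2, Eef2, Eif3a, Eif4a1, Eif4a2, Eif4g1, Eif4g2 and Eif5. These 8 had a WT median of 0.75 against 0.36 in the others, where all coding genes gave 0.14 and 0.02. Of the 8, 7 were above 0 (5 with TPM over coding entries) and Eif4a2 was at -0.64.

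Intronic signal in labelled RNA follows RNA before splicing, and here most factors were higher in depleted cells, as most of the table was. Of 54 factors with at least 1 TPM of intronic signal, 45 were above 0 in depleted cells, against 83% of all entries, with a median of 0.21 against 0.28. None passed (limma; 4.23% of all entries were called, and 5 factors had an unadjusted p under 0.05, all higher, where 30.7% of entries were higher at that level). Once libraries were centred on their median, 20 of 54 were above 0, which turns the group's direction. In 38 of the 54 factors exonic signal was below 0 and intronic signal above 0. Of all entries, 44.5% were below 0 in exonic and 83% above 0 in intronic signal of labelled RNA. The share with both was not counted, so the 38 cannot be set against the table.

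Eif2s2 had the highest intronic change, from 104 and 73.1 TPM in WT to 211 and 173 TPM in depleted cultures (1.12 ± 0.25, limma adjusted p = 0.0527), so intronic and exonic signal were both higher in both depleted cultures. It passed with a pseudocount of 5 (limma adjusted p = 0.0224) and with the replicate number as a block (0.0155). With that pseudocount 3 of 54 factors passed, where 2742 of 12472 entries were called higher and 44 lower. With the block 2 factors passed, where 1256 entries were called higher and 20 lower. Second in intronic change in the main fit was Eef2k, at 4.03 and 6.83 against 9.59 and 10.0 TPM (0.79 ± 0.21, limma adjusted p = 0.0721). Eif5b had 20.4 and 18.2 against 31.7 and 27.1 TPM (0.58 ± 0.18, limma adjusted p = 0.0896). Among the elongation factors, 4 of 5 eEF1 genes and Eef2 were below 0 in the main fit. With libraries centred, 34 of all 54 factors were. The smallest limma adjusted p in the eEF1 group was 0.295. Cultures overlapped for Eef1a1 (20.2 and 96.7 against 21.8 and 69.6 TPM) and Eef1g (62.5 and 60.5 against 61.7 and 56 TPM). Eef2 was at 2.07 and 2.77 TPM in WT and 1.06 and 1.77 TPM in depleted cultures (-0.51 ± 0.23, limma adjusted p = 0.171).

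**Figure D4:**
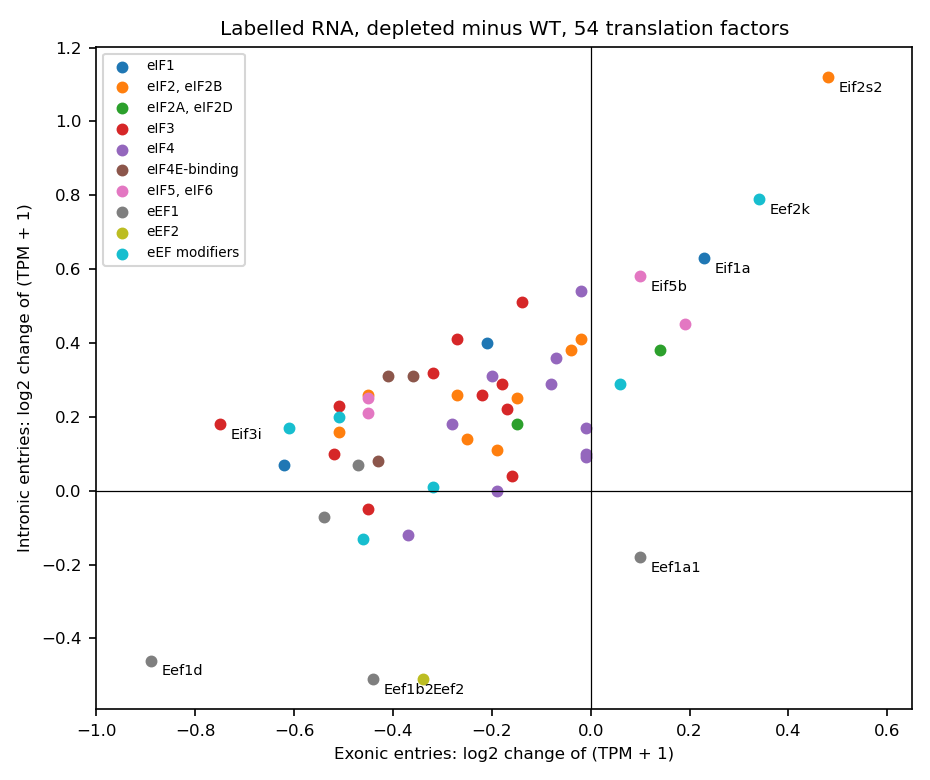
Log2 change of TPM + 1 in labelled RNA, depleted minus WT, of exonic (horizontal) and intronic entries (vertical) for the 54 factors with intronic signal, coloured by role. Of these, 38 lie in the upper left quadrant, although with libraries centred only 20 of 54 are above 0 in introns. Over all entries, 83% are above 0 in introns, and the share in that quadrant was not counted. Eif2s2, at 0.48 and 1.12, is the farthest up and right, and Eef1d, Eef1b2 and Eef2 are low on both axes.

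Neighbouring steps of translation were read from lists of other genes. The lists were termination and recycling (9 genes), poly(A) binding (11), eIF2 kinases and phosphatase (8) and mTOR and MNK input (11). In exonic signal, none of these genes passed between genotypes in labelled or preexisting RNA (limma, adjusted p under 0.05, where 0.128% and 0.646% of entries were called). At an unadjusted p under 0.05 there were 1, 3, 0 and 0 genes in labelled and 1, 3, 1 and 0 in preexisting RNA, in that order. The median changes in preexisting RNA were -0.13, -0.21, -0.00 and -0.02 in that order. The smallest p was that of Pabpc4, a cytoplasmic poly(A)-binding protein, at -0.88 ± 0.15 in preexisting (limma adjusted p = 0.0563) and -0.90 ± 0.15 in labelled RNA (0.0939). For the other lists it was that of Mcts1 (-0.66), Ppp1r15a (-1.38), the stress-induced subunit that directs eIF2 dephosphorylation, and Mknk1 (-0.75) in preexisting RNA. Paip1, of the poly(A) list, was higher in depleted cells, at 0.82 ± 0.30 in labelled and 0.94 ± 0.30 in preexisting RNA. Its intronic signal in labelled RNA passed (1.53 ± 0.21, limma adjusted p = 0.0217), where 4.23% of all entries were called. In preexisting RNA 4 of the 11 poly(A)-binding genes were above 0 and 7 below. Between the fractions of WT cells, 5 of 11 poly(A)-binding genes were called higher in preexisting RNA, with the smallest p in Pabpc4 (1.31), and 4 of 9 termination genes were called higher, with the smallest p in Gspt1 (0.99), the release factor eRF3, and 1 lower (Mcts1), where 7.98% of all entries were called higher and 26.1% lower. Of 11279 coding genes, 1102 were called higher and 849 lower. The termination genes had a median of -0.22, with 5 of 9 below 0.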

How the data were processed

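The 62 factors and all gene lists were chosen with earlier results of these data known. Only the 16 4sU libraries of the 31 in the series were used; the small RNA counts were not. Per the labels' protocols, reads of ribosomal RNA were taken out by a first STAR 2.5.0 mapping, and RSEM then estimated exonic and intronic entries; the submitters' processing notes name mm10. The values that the authors deposited are a signal named TPM whose columns sum to about 10000000, so 10 deposited units were taken as 1 TPM. The depth is unknown. Exonic entries were matched to GENCODE M21 and summed per gene. limma 3.58.1 (trend, R 4.3.3) was fitted on the mean log2(TPM + 1) of each culture's 10 and 15 minute libraries, in 1 model of 4 groups over 21821 entries with a mean of at least 1 TPM; two-sided p-values were Benjamini-Hochberg adjusted (threshold 0.05). The fit was tested on simulated data. Named were all factors by role, those past the threshold or, where none passed, those of smallest p, and the extremes of level and ratio. Labelled and preexisting RNA of a culture share that culture: their deviations correlated with r = 0.48 between the WT cultures and 0.05 between the depleted cultures over 11795 genes; the shared culture was fitted as an alternative.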

Additional observations from a re-analysis of the deposited data

How the results depend on the processing

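No factor passed between genotypes in labelled or preexisting RNA or in the ratio under any alternative run (pseudocount 0.1 or 5, no filter or a mean of at least 5 TPM, centring, TPM over coding entries, only the groups compared, 1 labelling time, averaging before the log, blocks, 1 culture left out), except 1 factor, Eif1ax, in preexisting RNA with coding isoforms only, an alternative chosen after seeing the data. For preexisting against labelled RNA in WT, the 21 calls became 37 with libraries centred, 8 with TPM over coding entries and 8 with 10 minute libraries only. The depleted count of 23 became 12 with TPM over coding entries. Over all entries the WT calls moved too, from 1742 higher and 5692 lower. They became 5147 and 3397 with centring, 229 and 1104 with TPM over coding entries, and 529 and 3435 with 10 minute libraries. In depleted cells they went from 2407 and 6565 to 445 and 2177 with TPM over coding entries. With 1 culture left out the counts were 0 to 17 in WT and 5 to 19 in depleted cells; the lone culture of a group is then assumed to vary like the others. With the replicate number as a block, which the labels do not tie to a shared day or batch across genotypes (r = 0.15 in labelled and 0.26 in preexisting RNA), no factor was called between genotypes in either fraction, 23 were called in WT and 27 in depleted cells; with the shared culture as a block 24 and 28. For intronic signal the count of 0 became 2 with the replicate block (Eif2s2 and Eef2k), where 1256 of 12472 entries were called higher and 20 lower. It became 3 with a pseudocount of 5 (these and Eif5b), where 2742 entries were called higher and 44 lower. Factors above 0 in intronic signal were 26 of 32 with a mean of at least 5 TPM and 20 of 54 with centring. The cause of these shifts was not tested; the stricter filter tests fewer genes. Over 73 single-gene results and all settings, no direction of a called value was reversed; 1013 values kept their side of the threshold, 180 called values lost it and 6 gained it. With 2 cultures a group and unknown depth, a missed threshold does not show equality.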
